A study of Mus musculus with 12 samples.

Results

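Genes of tendon progenitors were examined in mouse forelimbs in which Impdh2, an enzyme of guanine nucleotide synthesis, had been deleted. The 9 genes are Scx, Mkx, Egr1, Egr2, Tgfb2, Tgfb3, Tnmd, Tnc and Fmod, taken by symbol from the 51826 gene identifiers of the forelimb count table; each symbol matched 1 identifier. RNA sequencing had been made of forelimbs of embryos at E12.5. One group was wild type (WT, 2 libraries) and the other was Prx-cKO (2 libraries), in which Impdh2 was deleted in limb mesenchymal progenitors by the Prx system; the forms of the Impdh2 allele, the strain and the Cre status of the WT embryos are not in the labels. A further 8 libraries came from cultures of bone marrow cells, labelled osteoclast, from WT animals and from LysM-cKO animals, which lack Impdh2 in myeloid cells. The labels do not say whether libraries of a group came from separate litters or from pooled embryos, so p-values measure only the spread between these libraries.

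Limb tendons form from mesenchymal progenitors that switch on Scx (scleraxis), a basic helix-loop-helix transcription factor. TGF-beta ligands maintain and recruit these progenitors, and the transcription factors Mkx, Egr1 and Egr2 act on the later programme of collagen and other matrix genes. Tnmd (tenomodulin) is a membrane protein of differentiating tendon cells, and Tnc (tenascin C) and Fmod (fibromodulin) are secreted matrix proteins. Prx-driven Cre is active in the mesenchyme that gives rise to cartilage, bone, tendon and connective tissue, whereas limb muscle, vessels, nerves, blood and surface ectoderm have other origins.

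The 4 forelimb libraries held 28892215 to 69466572 counts. Impdh2 itself was at 260 and 272 CPM (the standard depth-normalised count, here with TMM-scaled library sizes) in WT, against 170 and 199 CPM in Prx-cKO, so 69.3% of the WT mean remained (log2 fold change −0.53, SE 0.16, edgeR adjusted p 0.443). By design the deletion covers only mesenchymal progenitors, and the RNA is of all forelimb tissues. Where the remaining Impdh2 RNA came from was not tested. Counts of the X-inactivation RNA Xist and the Y-linked gene Ddx3y were female-type in WT replicate 1 and Prx-cKO replicate 2 and male-type in the other 2 libraries, so each genotype held 1 of each. The limb mesenchyme markers Prrx1 and Pdgfra were detected in every library, at 304 and 397 CPM (Prrx1) and 406 and 466 CPM (Pdgfra) in WT. In Prx-cKO they were at 175 and 216 CPM and at 248 and 252 CPM. Over 12 fixed mesenchyme markers the summed level was 2138 and 2409 CPM in WT and 1593 and 1665 CPM in Prx-cKO. Not all of the 12 went this way: 8 had a negative and 4 a positive log2 fold change.

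No gene of the 19987 tested in the forelimb passed an adjusted p under 0.05 (edgeR quasi-likelihood test, Benjamini-Hochberg, two-sided), which is 0% of those tested, and none of the 9 tendon genes did. Without adjustment, 2095 genes (10.5%) had a p under 0.05, of which 921 (4.61%) were lower and 1174 (5.87%) higher in Prx-cKO. DESeq2 called 301 genes (1.45% of the 20738 with an adjusted p) and again none of the 9. A single value compared by exact permutation of 2 libraries against 2 cannot give a two-sided p below 0.333. All 9 genes passed the filter on low counts.

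Scx, the defining tendon progenitor factor, overlapped between the groups at 104% of the WT mean, while Mkx, Tnc and Fmod lay lower in both Prx-cKO libraries at 50.9% to 60.2% of the WT mean. Tgfb2 and Tgfb3 lay lower by a smaller margin, at 79.6% and 80.5%. Egr1 and Egr2 differed more between replicates of 1 genotype than between the genotypes' means. Tnmd, at 26.4%, passed the filter on low counts only through its WT libraries and so had to differ; it is left out of the counts that follow. For 5 of the other 8 genes (Mkx, Tgfb2, Tgfb3, Tnc and Fmod) the groups did not overlap and Prx-cKO was lower; over all genes tested, 43.2% were non-overlapping, 21% lower and 22.2% higher. The log2 fold change was negative for the same 5, against 52.8% of all genes tested below 0. Of the 8, Mkx, Tnc and Fmod were lower at an unadjusted p under 0.05, against the 4.61% given above. With 1 library left out at a time, which leaves a single library in a group, the log2 fold changes of these 3 stayed negative. They ran from −1.35 to −0.64 for Mkx, −1.04 to −0.46 for Tnc and −0.99 to −0.65 for Fmod. Each genotype held 1 female-type and 1 male-type library, and with sex as a term, added after the data were seen, Tnc and Fmod stayed under 0.05 and Mkx did not (p 0.087 in edgeR, unadjusted). The median log2 fold change of the 9 genes, Tnmd included, was −0.33, against −0.03 over all genes tested. In bulk forelimb RNA, a difference in the share of cells that express these genes and a difference in RNA per cell cannot be told apart.

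**Figure D1:**
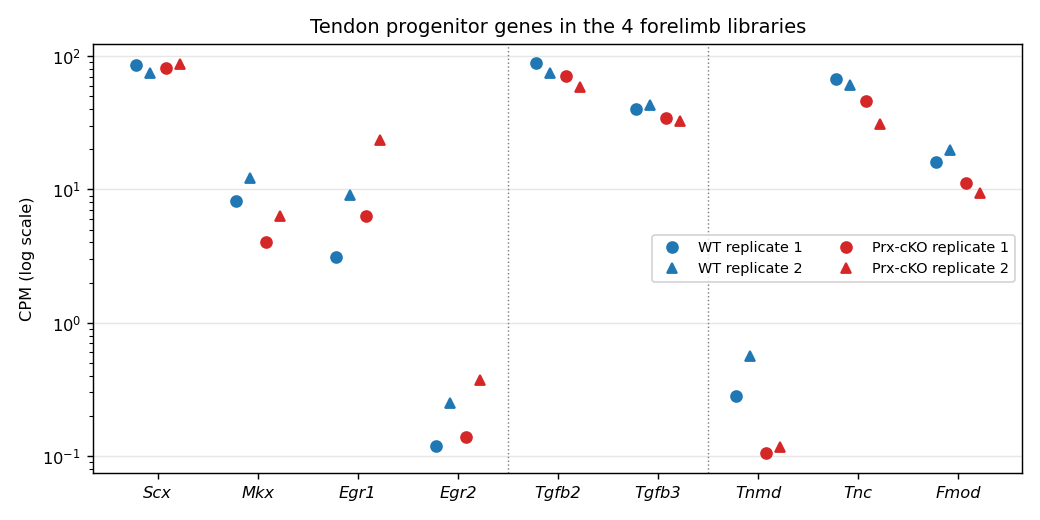
CPM (log scale) of the 9 genes in each forelimb library; blue is WT, red is Prx-cKO, circles are replicate 1 and triangles replicate 2, and dotted lines separate transcription factors, ligands and matrix or membrane genes. Scx lies between 74.9 and 87.0 CPM in all 4 libraries, whereas both red points lie below both blue points for Mkx, Tgfb2, Tgfb3, Tnmd, Tnc and Fmod. Tnmd passed the filter on low counts only through WT.

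Per base of exon the order of levels was led by Scx. In WT it was at 40.2 ± 4.12 RPKM (CPM per kilobase of merged exons, SD, n = 2). Tgfb2 followed at 14.1, Tgfb3 at 12.3, Tnc at 8.22 and Fmod at 5.44 RPKM, and no neighbours among these 5 overlapped between libraries. Mkx at 2.49 and Egr1 at 1.35 RPKM overlapped each other, and Tnmd (0.311 RPKM) and Egr2 (0.0543 RPKM) were lowest. In Prx-cKO the first 4 places were held by the same genes, with Scx at 41.9 ± 2.02, Tgfb2 at 11.2, Tgfb3 at 9.91 and Tnc at 4.95 RPKM (SD for Scx, n = 2). Tgfb2 overlapped Tgfb3 there. Egr1, at 3.32 RPKM with libraries at 1.40 and 5.23, overlapped Tnc above it and Fmod (3.12 RPKM) below it. Tnmd and Egr2 could not be ordered in Prx-cKO, at 0.0820 and 0.0752 RPKM with overlapping libraries.

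Among the transcription factors, Scx (ENSMUSG00000034161) spans 76457452 to 76459458 of chromosome 15 (plus strand) in GRCm38, and its exon lies within an intron of Bop1, a ribosome assembly gene on the other strand. Scx was at 86.6 and 74.9 CPM in WT replicates 1 and 2, against 81.3 and 87.0 CPM in Prx-cKO replicates 1 and 2. The groups overlapped, with WT replicate 2 the lowest and Prx-cKO replicate 2 the highest. The means were 80.8 ± 8.27 and 84.2 ± 4.05 CPM (SD, n = 2), and the log2 fold change was 0.06 (SE 0.16, edgeR adjusted p 0.914). Its sign turned to −0.04 with library size alone and to −0.03 without WT replicate 2, so no direction can be given. No exon of Bop1 overlaps that of Scx, but the use of strand in counting is not given in the sources used here, and Bop1 was at 90.0 and 102 CPM in WT and 136 and 165 CPM in Prx-cKO. Whether unspliced Bop1 RNA added to the Scx counts was not tested.

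Mkx (mohawk, ENSMUSG00000061013), a homeobox factor that maintains tendon matrix genes, spans 6934518 to 7004780 of chromosome 18 (minus strand). It was at 8.22 and 12.1 CPM in WT, against 4.0 and 6.36 CPM in Prx-cKO. Both Prx-cKO libraries lay below both WT libraries, and in each genotype replicate 2 was the higher. The means were 10.2 ± 2.78 and 5.18 ± 1.67 CPM (SD, n = 2), and the log2 fold change was −0.96 (SE 0.36, unadjusted p 0.0412, edgeR adjusted p 0.473; unadjusted p 0.087 with sex as a term). Of its exonic bases, 4.91% are shared with the transcript AC148004.2 on the same strand, whose reads could not be told apart there. Between libraries of the same sex type the remaining share differed: Prx-cKO replicate 2 held 77.4% of WT replicate 1, and Prx-cKO replicate 1 held 32.9% of WT replicate 2. Between libraries of the same number the shares were close, at 48.7% for replicate 1 and 52.4% for replicate 2.

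Egr1 and Egr2 are zinc finger factors that many cells also induce within minutes of a stimulus, as members of the immediate early genes. Egr1 (ENSMUSG00000038418) spans 34859823 to 34864984 of chromosome 18 (plus strand), and Egr2 (ENSMUSG00000037868) 67535475 to 67542188 of chromosome 10 (plus strand). Egr1 was at 3.12 and 9.01 CPM in WT replicates 1 and 2, against 6.30 and 23.5 CPM in Prx-cKO replicates 1 and 2. Each Prx-cKO library was above the WT library of the same number, but the groups overlapped. Replicate 2 exceeded replicate 1 by 2.89-fold in WT and by 3.72-fold in Prx-cKO, against a ratio of genotype means of 2.45. The log2 fold change was 1.29 (SE 0.75, edgeR adjusted p 0.597), and it was 0.03 without Prx-cKO replicate 2, 0.71 without WT replicate 1, 1.94 without Prx-cKO replicate 1, and 2.28 when leaving out WT replicate 2.

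Egr2, which also marks Schwann cells, was barely detected, with 5 and 18 counts in WT and 4 and 19 in Prx-cKO. Its levels were 0.118 and 0.251 CPM in WT and 0.139 and 0.372 CPM in Prx-cKO, and again replicate 2 was the higher in each genotype, by 2.12-fold and 2.67-fold. Egr2 passed the filter on low counts only through its replicate 2 libraries, so a difference in this direction had to appear. On summed counts the ratio of Prx-cKO to WT was 1.43, with an exact 95% interval from 0.766 to 2.67 that covers counting error only. The log2 fold change, 0.50 (SE 0.74, edgeR adjusted p 0.850), turned to −0.50 without Prx-cKO replicate 2, and it was 1.24 at most over the alternatives. The Schwann and nerve markers summed to 141 and 137 CPM in WT and to 151 and 185 CPM in Prx-cKO. Of the 12 tested, 2 were higher and 0 lower at an unadjusted p under 0.05, against 5.87% and 4.61% of all genes tested. None of the 13 listed was at 0 counts in all libraries. Their part in the Egr2 values was not tested.

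Other immediate early genes were set beside Egr1 and Egr2. Fos was at 0.969 and 8.11 CPM in WT replicates 1 and 2, against 3.30 and 12.3 CPM in Prx-cKO. Fosb, chosen after its values were seen, was at 0.0945 and 3.83 CPM in WT, against 0.243 and 4.33 CPM in Prx-cKO. Replicate 2 exceeded replicate 1 by over 2-fold in both genotypes for Fos and Fosb among the 23 such genes tested, for Egr1 among the 9 tendon genes, and for 1.39% of all genes tested. Egr2, also over 2-fold, passed the filter on low counts only through its replicate 2 libraries. It had to differ in this direction and is not counted. Jun did not share this pattern, at 72.9 and 85.6 CPM in WT and 68.8 and 80.4 CPM in Prx-cKO. Between genotypes, 17 of the 23 had a positive log2 fold change, against 47.2% of all genes tested, with a median of 0.28. At an unadjusted p under 0.05, 5 were higher, against 5.87% of all genes tested, and 0 lower. The 4 smallest p belonged to Btg2, Arc, Klf2 and Dusp1, none passing after adjustment, and the fifth was Ier2, named after its values were seen (84.1 and 78.9 CPM in WT, 97.5 and 129 in Prx-cKO). Btg2, also a p53 target, was at 22.3 and 22.5 CPM in WT and 31.6 and 36.5 CPM in Prx-cKO. What differed between libraries of number 1 and number 2 is not in the labels and was not tested.

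**Figure D2:**
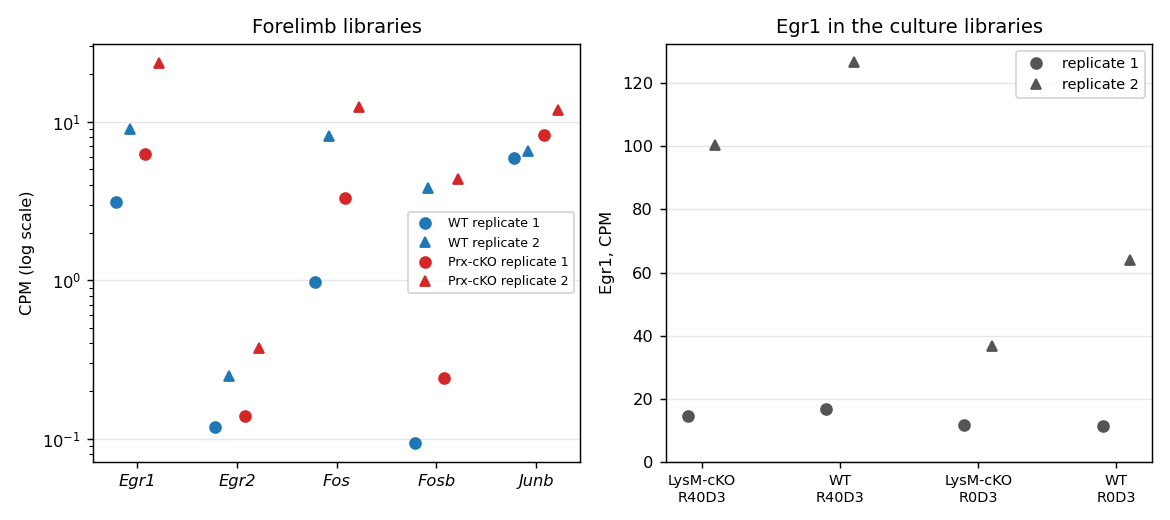
Left, CPM (log scale) of Egr1, Egr2, Fos, Fosb and Junb (the last chosen after its values were seen) in the forelimb libraries (blue WT, red Prx-cKO, circles replicate 1, triangles replicate 2). Right, Egr1 CPM in the 8 culture libraries by group and replicate number; in every pair shown for Egr1 the triangle lies above the circle, from 2.89-fold to 3.72-fold in the forelimb and from 3.13-fold to 7.60-fold in the cultures.

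The ligands Tgfb2 and Tgfb3 showed the smallest non-overlapping differences of the 9 genes. Tgfb2 (ENSMUSG00000039239) spans 186622792 to 186705989 of chromosome 1 (minus strand). It was at 88.2 and 75.2 CPM in WT, against 71.3 and 58.6 CPM in Prx-cKO, with a gap of only a few CPM between the nearest libraries of the groups. The means were 81.7 ± 9.19 and 65.0 ± 8.99 CPM (SD, n = 2), and the log2 fold change was −0.33 (SE 0.18, unadjusted p 0.122, edgeR adjusted p 0.574). Tgfb3 (ENSMUSG00000021253) spans 86056745 to 86079041 of chromosome 12 (minus strand). It was at 40.2 and 43.1 CPM in WT, against 34.5 and 32.5 CPM in Prx-cKO. The replicates of Tgfb3 were close, and its log2 fold change of −0.31 (SE 0.16, unadjusted p 0.101, edgeR adjusted p 0.548) stayed between −0.41 and −0.25 over the alternatives. For Tgfb2 the span was −0.47 to −0.19. Antisense or other transcripts overlap 2.14% of the exonic bases of Tgfb2 and up to 7.60%, for 1 transcript, of those of Tgfb3, and held at most 16 counts in any library. The gene Ttll5, on the other strand, also overlaps Tgfb3, but shares no exonic bases with it. It had 453 to 1672 counts a library, and whether its unspliced RNA added to the Tgfb3 counts was not tested.

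The matrix genes Tnc and Fmod both lay lower in Prx-cKO, and the membrane gene Tnmd was close to its detection limit. Promoter bases are printed for Tnc and Fmod because their groups did not overlap and their unadjusted p was under 0.05, and for Tnmd as the marker of differentiated tendon cells; none is printed for Mkx. Bases upstream of the start in both RefSeq and GENCODE are given 5′ to 3′ on the gene's strand, in GRCm38.p6, with capitals for E-boxes (CANNTG, the motif class bound by helix-loop-helix factors such as Scx) and for an EGR motif (GCGNGGGCG). The windows are chr1:134037004-134037253 (plus) for Fmod, chr4:64047016-64047265 (minus) for Tnc and chrX:133850758-133850979 (plus) for Tnmd.
Fmod promoter: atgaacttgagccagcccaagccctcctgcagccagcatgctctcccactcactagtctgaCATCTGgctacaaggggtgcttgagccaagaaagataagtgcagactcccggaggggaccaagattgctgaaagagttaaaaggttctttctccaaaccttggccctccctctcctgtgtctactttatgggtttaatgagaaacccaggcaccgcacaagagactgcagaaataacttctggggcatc
Tnc promoter: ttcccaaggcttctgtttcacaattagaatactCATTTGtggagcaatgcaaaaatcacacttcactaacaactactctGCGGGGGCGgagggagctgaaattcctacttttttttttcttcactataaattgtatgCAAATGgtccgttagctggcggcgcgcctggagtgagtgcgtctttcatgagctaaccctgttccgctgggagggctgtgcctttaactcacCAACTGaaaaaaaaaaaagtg
Tnmd promoter: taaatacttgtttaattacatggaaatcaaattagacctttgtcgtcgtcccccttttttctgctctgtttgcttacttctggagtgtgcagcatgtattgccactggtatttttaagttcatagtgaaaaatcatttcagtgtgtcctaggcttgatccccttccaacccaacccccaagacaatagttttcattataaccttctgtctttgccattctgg

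On these letters the Tnc window held 3 E-boxes and 1 EGR motif, the Fmod window held 1 E-box, and the Tnmd window held neither. No window of the 3 held the SMAD motif CAGACA, which was found once in the window of Tgfb2. Both strands were searched, and no marked motif overlapped another. Over 32851 RefSeq promoters cut to the 250 bases before the start, 66.2% held an E-box, 4.70% the EGR motif and 17.1% the SMAD motif. Promoters of 5 of the 9 genes matched in that table, the 3 above with Tgfb2 and Egr2. The matches describe sequence, and no binding was measured here.

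Fmod (ENSMUSG00000041559), a small leucine-rich proteoglycan that binds collagen fibrils, spans 134037254 to 134048277 of chromosome 1 (plus strand). It was at 16.2 and 19.8 CPM in WT, against 11.3 and 9.34 CPM in Prx-cKO. Every Prx-cKO library was below every WT library. The means were 18 ± 2.60 and 10.3 ± 1.37 CPM (SD, n = 2), and the log2 fold change was −0.81 (SE 0.23, unadjusted p 0.0164, edgeR adjusted p 0.441). This was the smallest p of the 9 genes, at place 743 among all genes tested, and over the alternatives its log2 fold change ran from −0.99 to −0.65 with adjusted p from 0.0824 to 1.

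Tnc (ENSMUSG00000028364), a large matrix glycoprotein of tendon, perichondrium and other connective tissue, spans 63959785 to 64047015 of chromosome 4 (minus strand). It was at 67.5 and 60.3 CPM in WT, against 46.2 and 30.8 CPM in Prx-cKO, and the groups did not overlap. Prx-cKO replicate 2 was the lowest library by a wide margin. The means were 63.9 ± 5.05 and 38.5 ± 10.9 CPM (SD, n = 2), and the log2 fold change was −0.73 (SE 0.24, unadjusted p 0.0255, edgeR adjusted p 0.452). The transcript 8030451A03Rik on the other strand overlaps 2.26% of its exonic bases and had at most 75 counts in a library. Leaving out Prx-cKO replicate 2 gave −0.46 (unadjusted p 0.129), and leaving out Prx-cKO replicate 1 gave −1.04 (unadjusted p 0.0136).

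Tnmd (ENSMUSG00000031250), a late marker of tendon cell differentiation, is X-linked, on the plus strand from 133850980 to 133865577. It had 12 and 40 counts in WT and 3 and 6 in Prx-cKO, which is 0.283 and 0.557 CPM against 0.104 and 0.117 CPM. The groups did not overlap, but the floor of 3 counts stood at 0.104 CPM in Prx-cKO replicate 1, so that library lay at the limit of detection. Tnmd passed the filter on low counts only through its WT libraries and so had to differ. The p-values and the interval that follow therefore give no support for a difference. The log2 fold change was −1.96 (SE 0.72, unadjusted p 0.0362, edgeR adjusted p 0.468; unadjusted p 0.111 with sex as a term). On summed counts Prx-cKO held 0.247 of the WT level, with an exact 95% interval of 0.107 to 0.507 for counting error only. Within libraries of the same sex type, Prx-cKO replicate 2 had 41.4% of WT replicate 1 and Prx-cKO replicate 1 had 18.7% of WT replicate 2.

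**Figure D3:**
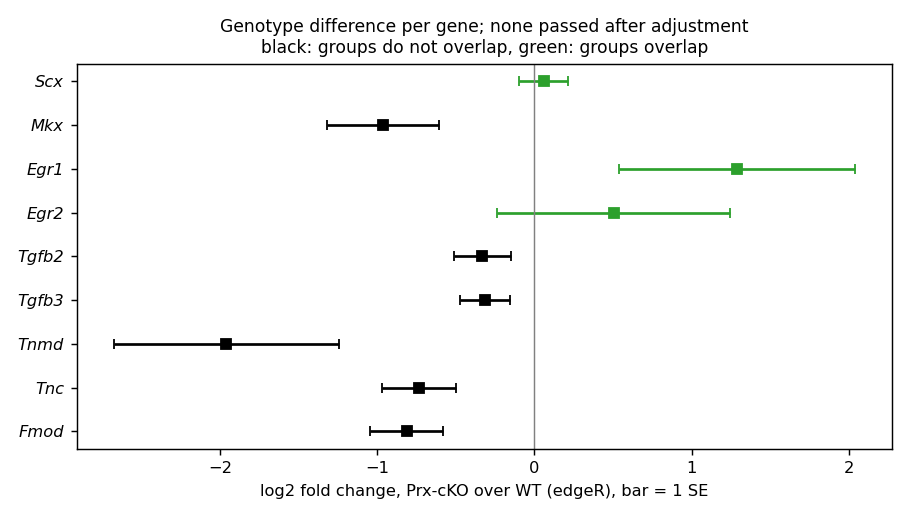
The log2 fold change of Prx-cKO over WT (edgeR) with a bar of 1 SE to each side for the 9 genes; black marks genes whose groups do not overlap and green those whose groups do. The 6 black points lie left of 0, from −1.96 (Tnmd) to −0.31 (Tgfb3), Scx lies at 0.06, and Egr1 and Egr2 have bars of over 0.7. No gene passed after adjustment, and Tnmd passed the filter on low counts only through WT.

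Ratios within a library do not depend on how libraries are scaled, so counts were set against those of Scx, a comparison chosen after the values were seen and given without a test. For every 1000 Scx counts there were 187 and 265 Fmod counts in WT and 139 and 107 in Prx-cKO. Tnc stood at 779 and 805 in WT, against 568 and 354 in Prx-cKO, and Mkx at 94.9 and 162 in WT and 49.2 and 73.1 in Prx-cKO. The groups did not overlap for Fmod, Tnc, Mkx, Tgfb2 or Tgfb3, with Prx-cKO at 47.6% (Mkx) to 76.8% (Tgfb3) of the WT mean ratio. Nor did they for Tnmd, at 24.6%, but that gene passed the filter on low counts only through its WT libraries. The groups overlapped for Egr1 and Egr2. The share of all genes that do not overlap in ratio to Scx was not computed. In CPM, 43.2% of genes tested did not overlap, 21% lower and 22.2% higher in Prx-cKO. Scx itself was at 104% of its WT mean, so these ratios stay close to the comparison in CPM. Prrx1, the mesenchymal homeobox gene, was itself at 3504 and 5296 per 1000 Scx counts in WT and at 2156 and 2478 in Prx-cKO.

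These ratios changed with the reference. For every 1000 Prrx1 counts there were 53.2 and 50.002 Fmod counts in WT and 64.3 and 43.3 in Prx-cKO. Tnc (222 and 152 in WT, 263 and 143 in Prx-cKO) and Mkx (27.1 and 30.6, and 22.8 and 29.5) also overlapped between the groups, at 109% and 90.7% of the WT mean ratio. Tnmd, which passed the filter only through WT, lay lower without overlap, at 48.7%. Tgfb2 overlapped at 141%, and Tgfb3 lay on the other side without overlap, at 144%. Egr1 and Egr2, which overlapped against Scx, were higher without overlap against Prrx1, at 438% and 247%. Scx was at 285 and 189 per 1000 Prrx1 counts in WT, against 464 and 404 in Prx-cKO, which is 183% of the WT mean ratio and does not overlap. Prrx1 was among the lower of the 12 mesenchyme markers, at 55.8% of its WT mean in CPM. Over the list, 4 had a positive and 8 a negative log2 fold change with a median of −0.29, and Twist1, Msx1, Msx2 and Meis2 stood at 104% to 130% of WT. With each of the 12 markers in turn as the reference, Fmod was lower without overlap against 7, overlapped against 3 and was higher against 2 (Tbx5 and Hoxd13). Tnc was lower against 6 and overlapped against 6, and Mkx was lower against 8 and overlapped against 4. The median ratio over the 12 references was 70.05% of WT for Fmod, 73.05% for Tnc and 62.6% for Mkx. Scx was higher without overlap against 7 references, overlapped against 3 and was lower against 2. Shares over all genes were not computed for the ratios to Prrx1 and the other markers either.

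**Figure D4:**
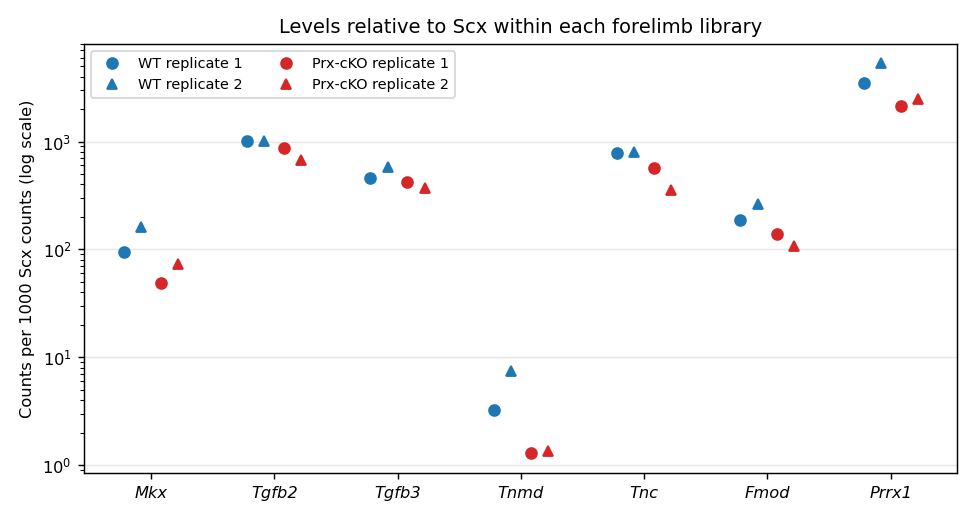
Counts per 1000 Scx counts (log scale) within each forelimb library, with blue for WT, red for Prx-cKO, circles for replicate 1 and triangles for replicate 2. For all 7 genes shown, both red points lie below both blue points, from Tnmd at 24.6% to Tgfb3 at 76.8% of the WT mean ratio. Tnmd passed the filter on low counts only through WT.

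The genes most like Scx over the 4 forelimb libraries were sought among 13583 genes averaging 1 CPM or more, by Euclidean distance of centred log2 CPM. The 5 nearest were Bfsp1, Ddah2, Schip1, Slc25a17 and Nab2, at distances from 0.00914 to 0.0267. None of the other 8 tendon genes was near, the closest being Tgfb3 at 0.453 (place 6461) and Tgfb2 at 0.478 (place 6959). With 4 libraries that share a flat profile such a likeness is weak.

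Other genes tied to tendon formation were taken from a fixed list of 15 regulators. At an unadjusted p under 0.05, 3 were higher and 2 lower, against 5.87% higher and 4.61% lower over all genes tested. After adjustment 0 passed, and the median log2 fold change was −0.04. Gdf5, a joint and tendon growth factor of the BMP family, was at 26.2 and 36.8 CPM in WT and 7.41 and 5.56 CPM in Prx-cKO. Sox9, the cartilage factor also present in progenitors of tendon attachment sites, was at 109 and 136 CPM in WT, against 49.6 and 42.9 CPM in Prx-cKO. Tcf15, the helix-loop-helix paralogue of Scx, was at 13.1 and 6.62 CPM in WT and 26.2 and 30.5 CPM in Prx-cKO, or 1.53 on the log2 scale (SE 0.36, edgeR adjusted p 0.413). Eya2 was at 19.2 and 20.5 CPM in WT and 29.1 and 34.3 CPM in Prx-cKO. These 4 had the smallest p of the list, and the third higher gene was Klf2, which the immediate early list also holds (5.20 and 3.39 CPM in WT, 8.17 and 9.04 in Prx-cKO). Gdf5 and Sox9 passed without WT replicate 1 (edgeR adjusted p 0.00114 and 0.00318) and without WT replicate 2 (0.0316 and 0.0397), Tcf15 passed only without WT replicate 1 (0.0049), and DESeq2 called all of these 3.

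The connective tissue matrix list of 26 genes had 4 lower and 0 higher at an unadjusted p under 0.05, against 4.61% lower and 5.87% higher over all genes tested. The list's median log2 fold change was −0.12. The 4 were Col11a1, Aspn, Col6a3 and Comp. Comp and Col11a1 are also cartilage matrix genes, Aspn (asporin) is a small proteoglycan, and Col6a3 is a chain of type VI collagen. Aspn was at 1.23 and 1.11 CPM in WT, against 0.452 and 0.176 CPM in Prx-cKO, and Comp at 0.945 and 1.25 against 0.452 and 0.372 CPM. Col11a1, at 74.0 and 85.5 CPM in WT and 43.1 and 42.2 CPM in Prx-cKO, passed only without WT replicate 1 (edgeR adjusted p 0.0214) and in DESeq2 (adjusted p 0.018). Of the main fibril collagens, Col1a1 did not overlap between the groups (83.9% of the WT mean) and Col3a1 did. Col3a1 was at 536 and 485 CPM in WT and 551 and 520 CPM in Prx-cKO, and Col1a1 at 198 and 191 CPM in WT and 177 and 149 CPM in Prx-cKO. Thbs4, a tendon thrombospondin, was at 1.32 and 1.57 CPM in WT and 1.95 and 1.45 CPM in Prx-cKO. Dcn (decorin) was at 14.9 and 14.3 CPM in WT and 24.8 and 11.7 CPM in Prx-cKO, so its log2 fold change of 0.32 turned to −0.30 without Prx-cKO replicate 1.

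Within the TGF-beta pathway, 34 of the 35 listed genes were tested. At an unadjusted p under 0.05, 4 were lower and 1 higher, against 4.61% lower and 5.87% higher over all genes tested, and 0 passed after adjustment. The median log2 fold change was −0.11. The lowest p belonged to genes that hold or respond to the ligand. Ltbp1 and Ltbp3, which tether latent TGF-beta in the matrix, had 106 and 131 CPM (Ltbp1) and 52.3 and 50.7 CPM (Ltbp3) in WT, against 62.4 and 64.2 CPM and 27.1 and 18.03 CPM in Prx-cKO. Tgfbi, a secreted protein induced by TGF-beta, was at 78.2 and 87.7 CPM in WT, against 47.7 and 47.6 CPM in Prx-cKO. The fourth lower gene, Itgb8, an integrin chain that activates latent TGF-beta and is named to complete the count, had 17.6 and 30.9 CPM in WT and 11.97 and 13.0 CPM in Prx-cKO. Ltbp1, Ltbp3 and Tgfbi passed without WT replicate 1 (edgeR adjusted p 0.0168, 0.0352 and 0.0346) and in DESeq2 (adjusted p 0.031, 0.00555 and 0.0476). Eng, a co-receptor that is abundant in endothelium, was at 20.7 and 16.0 CPM in WT, against 39.6 and 27.1 CPM in Prx-cKO. The endothelial markers summed to more in Prx-cKO, at 214 and 202 CPM summed in WT and 280 and 273 CPM in Prx-cKO, and their part in the Eng values was not tested.

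Among receptors and signal transducers, Tgfbr1, the type I receptor, was at 198 and 248 CPM in WT, against 170 and 196 CPM in Prx-cKO, and did not overlap (log2 fold change −0.29, unadjusted p 0.169). Tgfbr2, the type II receptor, overlapped, with 37.7 and 50.9 CPM in WT and 40.7 and 42.6 CPM in Prx-cKO. Smad3, which carries the signal to the nucleus, was at 106 and 146 CPM in WT and 105 and 119 CPM in Prx-cKO. Smad7, an inhibitor induced by the signal, was at 41.5 and 44.1 CPM in WT and 39.4 and 42.9 CPM in Prx-cKO. The signs for Tgfbr2 and Smad3 turned without WT replicate 2 and Smad7's without Prx-cKO replicate 1. Tgfb1, the third ligand, was at 17.9 and 15.2 CPM in WT, against 21.9 and 23.3 CPM in Prx-cKO, so it did not overlap and lay on the other side from Tgfb2 and Tgfb3 (log2 fold change 0.45, SE 0.20, edgeR adjusted p 0.501).

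**Figure D5:**
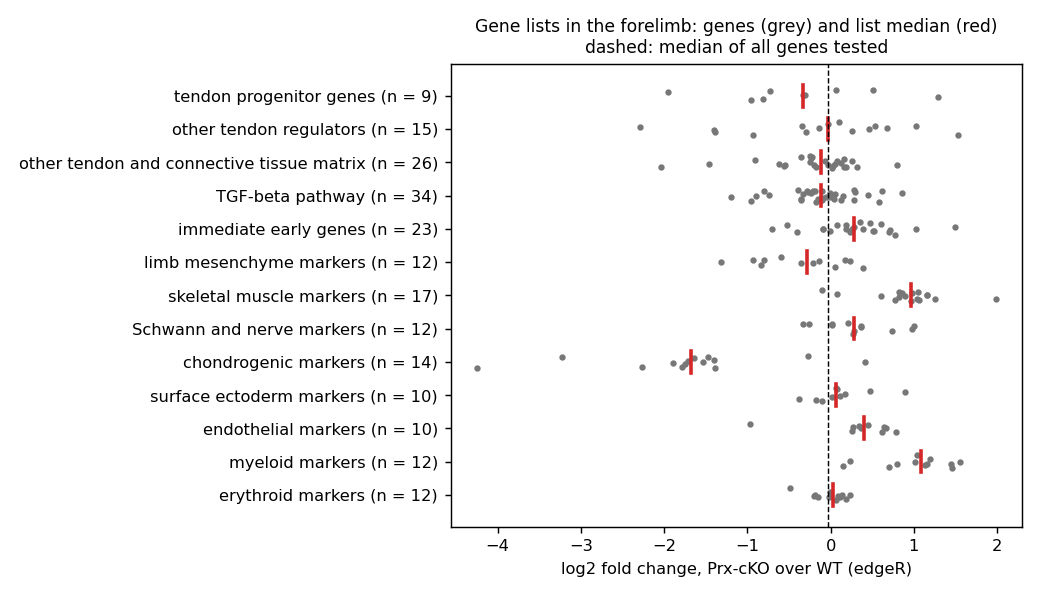
The log2 fold change of Prx-cKO over WT for every tested gene (grey points) of the 9 tendon genes and of 12 other fixed lists, with the list median in red and the median of all genes tested, −0.03, as a dashed line. The tendon genes spread from −1.96 to 1.29 around −0.33, whereas the chondrogenic markers lie around −1.68 and the myeloid markers around 1.09.

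Markers of other tissues also differed between the groups. The chondrogenic markers summed to 1131 and 1233 CPM in WT and to 488 and 365 CPM in Prx-cKO, and DESeq2 called 12 of the 14 tested as lower, against 0.752% of all genes with an adjusted p. Skeletal muscle markers stood at 496 and 458 CPM in WT, against 1290 and 582 CPM in Prx-cKO, with replicate 1 far above the rest. Myeloid markers stood at 62.7 and 60.8 CPM against 136 and 123 CPM. Surface ectoderm (703 to 855 CPM in WT, 836 to 927 in Prx-cKO) and erythroid markers (3848 to 5237 CPM in WT, 4061 to 4744 in Prx-cKO) overlapped. No marker of these lists was at 0 counts in all 4 libraries, and the part of tissue make-up in the tendon gene values was not tested.

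The cultures, counted in separate tables of 16009146 to 19221865 counts a library and scaled among themselves, gave levels of the same genes outside the limb. Tnmd had 2 counts and Mkx 25 over all 8 libraries, and Scx had at most 12 in any library, so these 3 did not pass the filter on low counts there. Egr2 was at 6.56 to 31.8 CPM, Tnc at 41.7 to 106 CPM, Tgfb3 at 6.47 to 26.0 CPM, Tgfb2 at 3.51 to 13.4 CPM and Fmod at 1.48 to 5.85 CPM. Tnc was at 94.6 CPM in LysM-cKO R40D3 replicate 1 and at 41.7 CPM in replicate 2. R40D3 and R0D3 are the titles' names for 2 culture conditions that the labels do not spell out. Egr1 was at 11.3 to 16.7 CPM in the replicate 1 libraries of the 4 culture groups and at 36.7 to 127 CPM in the replicate 2 libraries. Replicate 2 over replicate 1 thus ran from 3.13-fold to 7.60-fold for Egr1 and from 0.983-fold to 1.43-fold for Egr2. The labels do not tie the replicate numbers of the cultures to those of the forelimbs. The culture counts were deposited split by number, so the ratios of the 4 groups may not be independent. Levels across the tables were not tested against each other.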

How the data were processed

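The authors deposited raw counts of reads for Ensembl genes in 3 tables, 1 of the forelimbs and 2 of the cultures (split by replicate number), per the file headers. The submitters' processing notes name FastQC 0.11.2, Trimmomatic 0.36, HISAT2 2.1.0, DESeq2 1.12.4 and the build GRCm38; the counting tool, annotation and use of strand are not given in the sources used here. Symbols matched 99.6% of forelimb identifiers; positions and exonic lengths came from GENCODE M21 (GRCm38). Groups were taken from sample titles.

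Counts of the 4 forelimb libraries were filtered with filterByExpr, scaled by TMM and fitted with edgeR 4.0.16 (quasi-likelihood, legacy = FALSE, R 4.3.3), a design of group only, and tested on simulated data first. Each SE was derived from the log2 fold change and the F statistic. Total counts differed up to 69466572 against 28892215, and 3 counts, the detection floor, equal 0.0418 to 0.104 CPM. Reads have no molecular identifiers, so floors and intervals cover counting error only. DESeq2 1.42.0, other scalings and filters, a replicate block, a sex term and leaving out each library were alternatives. The 9 genes and the 12 other lists were chosen with earlier results of these data known. Named by rule were the 9 genes, Impdh2, the 4 smallest p of each list of tendon, matrix, TGF-beta and immediate early genes with a few set in advance, the 2 most abundant markers per cell type, and the 5 genes nearest to Scx; not all named markers are described. Ratios to Scx, Prrx1 and the other mesenchyme markers and the replicate-number counts were added after the data were seen.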

Additional observations from a re-analysis of the deposited data

How the results depend on the processing

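None of the 9 tendon genes passed an adjusted p under 0.05 under any of the 13 alternatives; with at least 1 CPM in 2 libraries Tnmd and Egr2 were not tested. Their order of size rests on 2 libraries a group and on unadjusted p. Genes called numbered 301 in DESeq2 (145 higher and 156 lower), 1 with the sex of the embryo as a term (chosen after seeing the data) and 0 to 603 with 1 library left out (603 leaving out WT replicate 1, 104 leaving out WT replicate 2). Genes with an unadjusted p under 0.05 numbered 1038 with the sex term and 611 to 4098 with 1 library left out. Tendon genes lower at that p, Tnmd counted, numbered 2 with the sex term (Tnc and Fmod) and 1 to 4 with 1 library left out; those higher numbered 0 to 1 (Egr1) with 1 library left out. The median log2 fold change of the 9 was −0.42 with library size alone, which moves the median of all genes to −0.13, and −0.36 with no filter on low counts; with 1 library left out it ran from −0.47 to −0.40. In those fits the lone library is assumed to vary like the other group.

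Signs turned with library size alone for Scx (−0.03852) and Col3a1 (−0.02582). With 1 library left out, signs turned for 9 genes, whose log2 fold changes ran from −0.03295 to 0.1323 for Scx (below 0 when WT replicate 2 was left out), −0.50 to 1.24 for Egr2 (below 0 when Prx-cKO replicate 2 was), −0.3259 to 0.1491 for Tgfbr2 and −0.4198 to 0.08103 for Smad3 (both above 0 when WT replicate 2 was), −0.1346 to 0.01327 for Smad7, −0.001336 to 0.4179 for Thbs4 and −0.302 to 0.7712 for Dcn (each turned when Prx-cKO replicate 1 was). Fos ran from −0.499 to 3.049 and was also −0.05296 when WT replicate 1 was left out. Jun ran from −0.2335 to 0.04194 and was also 0.03045 when Prx-cKO replicate 1 was left out. The cause was not tested.

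With the replicate number as a block, 0 genes were called. At an unadjusted p under 0.05, 4 tendon genes were lower, Tnmd counted. Egr1 was the 1 higher (log2 fold change 1.24, unadjusted p 0.00584, edgeR adjusted p 0.336). Over all 19987 genes tested, 2707 had an unadjusted p under 0.05 in that fit, against 2095 in the main fit. Across genes, the departures of libraries sharing a number from their genotype's mean had r = 0.307; with 2 libraries a group this is 1 pairing, and the labels do not say that a number marks a shared batch. Depth limits Tnmd and Egr2, which lay near the floor.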
